A study of Homo sapiens with 27 samples.

Results

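Doxorubicin is an anthracycline that traps type II topoisomerases on DNA, is pumped out of cells by ATP-binding cassette (ABC) transporters and is reduced to an alcohol by carbonyl reductases. The 10 genes described here were grouped around these steps. They are the topoisomerases TOP1, TOP2A and TOP2B, the efflux pumps ABCB1, ABCC1, ABCC2, ABCC3 and ABCG2, and the carbonyl reductases CBR1 and CBR3. TOP1, a type I topoisomerase, was included beside the type II enzymes. The genes were taken by symbol, with earlier results of these data known, and all 10 were found among the 24566 rows of the count table.

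RNA was sequenced from 2 established human tumour lines, A431 (epidermoid carcinoma) and MDA-MB-231 (breast adenocarcinoma), in 27 libraries of 9 groups with 3 biological replicates each, all 48 h after treatment. The A431 groups were untreated, vehicle, CKI (Compound Kushen Injection, an extract of the roots of Kushen and Baituling) at 1.0 mg/ml, doxorubicin, and CKI with doxorubicin. MDA-MB-231 cells were left untreated or received CKI at the same dose, 5Fu (5-fluorouracil) at 10 µg/ml, or both of these. All cells were grown in DMEM with fetal bovine serum, the vehicle is not identified, and the labels give more than a single doxorubicin dose without saying which was used. Each group comes from a single line, and doxorubicin was given to A431 cells and 5Fu to MDA-MB-231 cells, so these agents cannot be told apart from the lines. In total RNA from a culture, fewer cells of a kind and less of a transcript per cell cannot be told apart.

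Type II topoisomerases cut both strands of a DNA duplex and pass another duplex through the break. TOP2A is made by dividing cells and peaks before mitosis, while TOP2B is made in dividing and resting cells. TOP1 cuts a single strand and is the target of camptothecins. ABCB1 encodes P-glycoprotein, ABCC1, ABCC2 and ABCC3 encode multidrug resistance proteins of the ABCC family, and ABCG2 encodes the breast cancer resistance protein. In the GRCh37 annotation, with the exons of the canonical transcript, the topoisomerase genes are TOP1 on chromosome 20 from 39657462 to 39753127 (forward strand, 21 exons), TOP2A on chromosome 17 from 38544777 to 38574148 (reverse strand, 35 exons) and TOP2B on chromosome 3 from 25639469 to 25706400 (reverse strand, 36 exons). The pump genes other than ABCB1 are ABCC1 on chromosome 16 from 16042995 to 16237114 (forward strand, 31 exons), ABCC2 on chromosome 10 from 101542397 to 101612351 (forward strand, 32 exons), ABCC3 on chromosome 17 from 48712138 to 48769614 (forward strand, 31 exons) and ABCG2 on chromosome 4 from 89011302 to 89152780 (reverse strand, 16 exons), and the reductase genes are CBR1 on chromosome 21 from 37442239 to 37445464 (forward strand, 3 exons) and CBR3 on chromosome 21 from 37507377 to 37518860 (forward strand, 3 exons). Counts were taken per gene.

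Total counts were between 17757206 and 22809339 per library. A431 markers (EGFR, KRT5, KRT14, KRT17, CDH1 and DSG3) summed to 6142 to 8361 CPM (read counts relative to the total of the library) in A431 libraries and to 154.3 to 365.2 CPM in MDA-MB-231 libraries. Untreated MDA-MB-231 replicate 1 stood apart from the other replicates of its group, and called results that rest on it are given with and without it. A gene was called changed when its adjusted p was under 0.05 and its log2 fold change lay above 1 or below -1. Levels are CPM after scaling with TMM factors, a trimmed mean of ratios that centres most genes on no change. The factors for levels came from all 27 libraries and those for fold changes from the libraries of each fit. A ratio of levels can therefore differ from the printed fold change. Scaling by library size alone moved the median log2 fold change of all genes from 0.017 to 0.36 for doxorubicin against untreated A431 cells, and changes below are relative to the TMM centre. The split of called genes was 3650 higher and 2275 lower with TMM factors and 4724 and 1315 with library size alone. For CKI with doxorubicin it was 3446 and 2187 against 4486 and 1311 when compared with untreated cells, and 2638 and 1439 against 3187 and 971 when compared with CKI alone. For the interaction of CKI and doxorubicin it was 1360 and 1732 against 1028 and 2091, and for 5Fu 842 and 1024 against 1141 and 768. Between the untreated lines it was 3339 higher and 3028 lower in A431 cells with TMM factors, and turned to 3010 and 3334 with library size alone and to 3126 and 3207 with RLE factors. For the interaction of line and CKI it turned from 1317 positive and 1428 negative with TMM factors to 1488 and 1274 with RLE factors.

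Per length of the transcript, the most abundant of the 10 genes in untreated A431 cells was TOP2A, with 79.95 ± 1.67 RPKM (CPM per kilobase of the transcript; SD, n = 3). CBR1 had 71.2 ± 2.89 RPKM, TOP1 54.4 ± 0.658, ABCC1 29.4 ± 0.910, TOP2B 16.5 ± 0.888, ABCC3 16.0 ± 2.48, CBR3 8.498 ± 0.688, ABCG2 6.31 ± 0.308 and ABCC2 0.302 ± 0.0338, while ABCB1 had no count. In untreated MDA-MB-231 cells the order began with TOP2A (97.8 ± 11.6 RPKM), CBR1 (66.9 ± 11.5) and TOP1 (46.5 ± 3.13), and ABCG2 (0.853 ± 0.390) and ABCC2 (0.183 ± 0.0279) stood just above ABCB1, which again had no count. In untreated cells of both lines the pumps thus ranged from no count to 29.4 RPKM, while the topoisomerases and CBR1 stood at 16.5 RPKM or more.

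**Figure D1:**
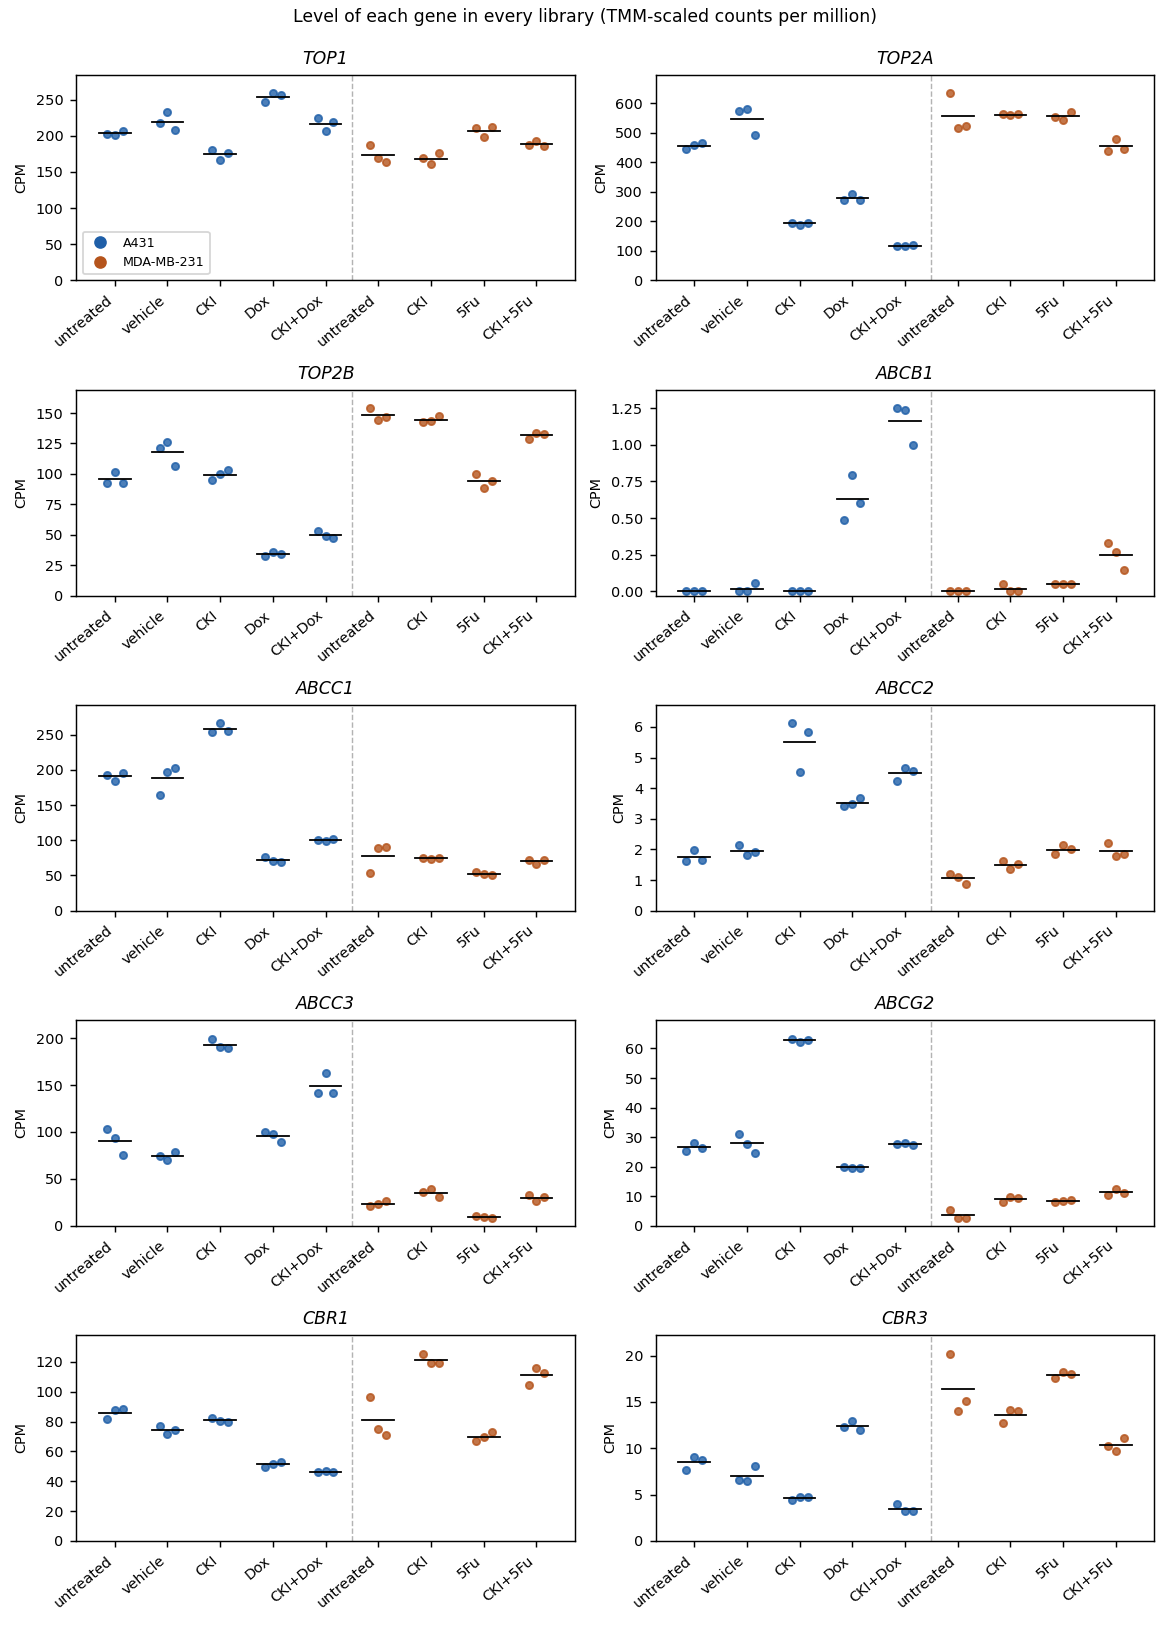
Level of each of the 10 genes in CPM (vertical axis, linear from 0) in each of the 27 libraries (points) of the 9 groups (horizontal axis), with group means as short horizontal lines, for A431 (blue) and MDA-MB-231 (orange). Among A431 groups TOP2B and ABCC1 are lowest where doxorubicin was given, ABCG2 stands at 62.05 to 63.34 CPM with CKI alone against 25.27 to 27.86 in untreated A431 cells, and ABCB1 counts appear in every A431 library that received doxorubicin.

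The first question was how doxorubicin alone moved these topoisomerases, pumps and reductases in A431 cells. TOP2B and ABCC1 fell by more than 2-fold, and ABCB1 rose from no count to between 10 and 16 counts. No other gene of the 10 was called. The 3 called genes of 10 stand beside 37.3% of the 15881 genes tested that were called in the same comparison (23% higher and 14.3% lower), so the share among the 10 genes was near the background.

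TOP2B had 92.71, 101.7 and 92.82 CPM in the untreated A431 libraries and 32.88, 36.07 and 33.81 CPM with doxorubicin. Every treated library lay below every untreated library. Its log2 fold change was -1.51 (SE 0.071, adjusted p = 7.4e-15), which is a level 2.85-fold lower. TOP2A, its paralog, had 444.9, 457.5 and 463.5 CPM in untreated cells and 273.8, 292.0 and 273.7 with doxorubicin. Its groups did not overlap either, but the log2 fold change of -0.73 (SE 0.059, adjusted p = 1.2e-10) was under the fold threshold. With the vehicle libraries as control it was -1.01 and passed. The ratio of TOP2A to TOP2B, per length, was 4.86 ± 0.254 (SD, n = 3) in untreated cells and 8.34 ± 0.135 with doxorubicin. TOP1 had 201.4 to 206.0 CPM untreated and 246.5 to 258.9 CPM with doxorubicin (log2 fold change 0.29, SE 0.056, adjusted p = 5.0e-05, not called).

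The sequences before the transcription starts are shown for the 2 type II topoisomerases and ABCB1, because these genes were called in doxorubicin comparisons and their promoters hold CCAAT letters. Each is the 250 bases before an annotated start in RefSeq (build GRCh38.p14), with CCAAT on either strand in capitals, all on the reverse strand of the genome and written 5′ to 3′. TOP2A lies at chr17:40417897-40418146, TOP2B at chr3:25664908-25665157 (the upstream of its 2 starts) and ABCB1 at chr7:87600885-87601134 (1 of its 2 starts).
TOP2A: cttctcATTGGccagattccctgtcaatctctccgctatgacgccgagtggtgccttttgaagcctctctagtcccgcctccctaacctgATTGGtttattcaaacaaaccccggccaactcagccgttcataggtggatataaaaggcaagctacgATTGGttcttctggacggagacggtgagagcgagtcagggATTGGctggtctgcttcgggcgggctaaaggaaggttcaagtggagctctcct
TOP2B: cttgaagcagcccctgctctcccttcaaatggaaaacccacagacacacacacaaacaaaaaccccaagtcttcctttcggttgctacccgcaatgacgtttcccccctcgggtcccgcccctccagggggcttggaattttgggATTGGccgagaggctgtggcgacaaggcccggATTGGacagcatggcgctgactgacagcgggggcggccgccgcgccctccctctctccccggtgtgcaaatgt
ABCB1: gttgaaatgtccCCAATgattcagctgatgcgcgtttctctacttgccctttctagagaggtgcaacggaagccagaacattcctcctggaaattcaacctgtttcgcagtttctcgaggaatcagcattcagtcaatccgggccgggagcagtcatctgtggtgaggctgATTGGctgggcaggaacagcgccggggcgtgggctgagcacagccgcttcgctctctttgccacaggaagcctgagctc
CCAAT, searched on both strands, was present 4 times in the TOP2A window, 2 times in that of TOP2B and 2 times in that of ABCB1. In RefSeq, 34.6% of 35116 promoter windows of 300 bases (250 before and 50 after the start) hold CCAAT at least once and 0.991% hold it at least 4 times. RefSeq windows were found for 7 of the 10 genes, 13 windows in all. CCAAT was absent from the other window of TOP2B, the other window of ABCB1 and every window of ABCG2, ABCC2, TOP1 and CBR1. The GC box GGGCGG (45% of windows), the antioxidant response core TGACNNNGC (13.3%) and the aryl hydrocarbon receptor core GCGTG (36.5%) were searched as well, again on both strands and without removing overlaps between motifs. TGACNNNGC was found in the windows of TOP1, CBR1 and 1 of the 5 ABCG2 starts, and no match to any of the 4 motifs was found in that of ABCC2. These matches describe letters and do not show binding.

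Among the pumps, ABCC1 had 192.8, 184.5 and 196.0 CPM in untreated A431 cells and 75.60, 69.85 and 68.99 CPM with doxorubicin. The groups were far apart, with a log2 fold change of -1.45 (SE 0.068, adjusted p = 6.8e-15), a level 2.72-fold lower. ABCB1, the best known anthracycline pump, had 0 counts in each untreated library and 10, 16 and 12 counts with doxorubicin. Against a floor of 3 counts per untreated library, ABCB1 was at least 4.435-fold higher on library totals. The edgeR test on its counts, which does not use this floor, gave an adjusted p of 7.5e-06. ABCB1 passed the filter on low counts through the groups that received doxorubicin, where it was detected. Of the 6470 rows with no count in any untreated A431 library, 188 (2.91%) had at least 10 counts in every doxorubicin library, as ABCB1 did. Its level there was 0.629 ± 0.154 CPM, against 71.5 ± 3.60 CPM for ABCC1, and per length 0.121 ± 0.0296 RPKM against 11.0 ± 0.553. Of the gene itself, on chromosome 7 of GRCh37 from 87132333 to 87342639 with 28 exons in its canonical transcript, no exonic base is shared with another annotated gene.

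ABCC2 had 1.61, 1.98 and 1.67 CPM in untreated cells (27 to 36 counts) and 3.42, 3.47 and 3.67 CPM with doxorubicin (70 to 73 counts). The groups did not overlap, and the log2 fold change of 0.97 (SE 0.18, adjusted p = 3.2e-05) lay just under the fold threshold, so that ABCC2 was not called. It was called with 7 of 17 alternatives, with values from 0.81 to 1.31 over all of them. The 7 include the adjusted p alone, which has no fold threshold and so calls ABCC2 by rule. ABCC3 overlapped between the groups (75.56 to 103.3 CPM untreated, 89.38 to 99.87 with doxorubicin), with a log2 fold change of 0.05 and a 95% interval from -0.12 to 0.21. ABCG2 stood at 25.27 to 27.86 CPM untreated and 19.65 to 19.87 CPM with doxorubicin (log2 fold change -0.46, SE 0.078, adjusted p = 1.5e-05, not called).

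Of the reductases, CBR1 had 82.02, 87.70 and 88.37 CPM in untreated cells and 49.32, 51.69 and 53.16 CPM with doxorubicin. Its log2 fold change was -0.77 (SE 0.058, adjusted p = 3.4e-11), not called. CBR3 had 7.71, 9.01 and 8.73 CPM untreated and 12.33, 12.95 and 12.01 CPM with doxorubicin (log2 fold change 0.52, SE 0.11, adjusted p = 1.3e-04, not called). The ratio of CBR1 to CBR3, per length, was 8.40 ± 0.378 untreated and 3.42 ± 0.205 with doxorubicin. CBR3 counts are uncertain, because 710 of its 998 exonic bases (71.1%) lie under the antisense gene CBR3-AS1 and the libraries are unstranded, so reads of the pair cannot be told apart. CBR3-AS1 itself stood at 1.42 to 2.64 CPM untreated, 2.98 to 5.401 with CKI, 8.84 to 11.2 with doxorubicin and 6.17 to 8.06 with both agents. CBR1 shares 18.9% of its exonic bases with annotated neighbours.

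The next comparison asked what CKI did to the same genes in A431 cells that also received doxorubicin. TOP2A and CBR3 fell, and no pump was called in either direction. The 2 called genes of 10 stand beside 14.9% of genes tested (6.89% higher and 8.03% lower). All 5 pumps and TOP2B had positive log2 fold changes below 1.

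TOP2A had 117.9, 116.1 and 119.7 CPM with CKI and doxorubicin, against 273.8 to 292.0 CPM with doxorubicin alone. The log2 fold change was -1.23 (SE 0.061, adjusted p = 6.8e-14), a level 2.34-fold lower, and all libraries of the combination lay below all libraries of doxorubicin alone. CBR3 had 3.94, 3.24 and 3.20 CPM with both agents against 12.01 to 12.95 CPM, a log2 fold change of -1.82 (SE 0.12, adjusted p = 9.8e-12) and a level 3.53-fold lower. The antisense limit on CBR3 applies here too. TOP2B stood at 47.34 to 53.29 CPM with both agents (log2 fold change 0.56, SE 0.072, adjusted p = 4.9e-07, not called), and TOP1 at 206.0 to 224.3 CPM (log2 fold change -0.21, SE 0.055, adjusted p = 0.0022, not called). CBR1 stood at 46.01 to 46.84 CPM (log2 fold change -0.13, SE 0.059, adjusted p = 0.066).

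Counts of ABCB1 were 27, 26 and 20 with both agents and 10, 16 and 12 with doxorubicin alone, so that the lowest library of the combination was above the highest of doxorubicin alone. The log2 fold change was 0.91 (SE 0.32, adjusted p = 0.019) and was not called. Without doxorubicin replicate 2 it was 1.11, and without CKI with doxorubicin replicate 3 it was 1.00, and ABCB1 was called in both cases. With DESeq2 it was 0.90 (adjusted p = 0.088), and over the alternatives the adjusted p ran from 0.012 to 0.0899. The other pumps were at 99.56 to 101.2 CPM for ABCC1 (log2 fold change 0.51, SE 0.068), 141.1 to 162.8 CPM for ABCC3 (0.66, SE 0.083), 27.35 to 27.91 CPM for ABCG2 (0.51, SE 0.076) and 4.22 to 4.67 CPM for ABCC2 (0.37, SE 0.14). All 4 had an adjusted p under 0.05, the largest being 0.031 for ABCC2, and all were below the fold threshold. Of the 15881 genes tested, 63.6% passed the adjusted p alone in this comparison, 5363 of them higher, so passing was common.

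Against untreated A431 cells, the combination lowered TOP2A by 3.88-fold (log2 fold change -1.957, SE 0.061, adjusted p = 6.0e-18) and CBR3 by 2.46-fold (-1.30, SE 0.13, adjusted p = 3.9e-09). ABCC2 rose 2.53-fold (1.34, SE 0.17, adjusted p = 2.2e-07), and ABCB1 was called higher (adjusted p = 1.8e-07 by the edgeR test on its counts). Against the floor of 3 counts per untreated library, which that test does not use, ABCB1 was at least 8.16-fold higher. These 4 calls stand beside 35.5% of genes tested (21.7% higher and 13.8% lower). The call of CBR3 was lost with library size alone (-0.98) and with offsets for GC content and transcript length (-0.98). TOP2B (-0.95) and ABCC1 (-0.93) lay just under the threshold, and TOP2B passed it with the vehicle control (-1.26) and the same offsets (-1.14). ABCG2 and TOP1 overlapped between the groups, with log2 fold changes of 0.05 (95% interval -0.10 to 0.20) and 0.08 (-0.02 to 0.19).

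Doxorubicin was also compared on the background of CKI. Against CKI alone, CKI with doxorubicin had lower ABCC1 (log2 fold change -1.27, SE 0.066, adjusted p = 1.0e-13) and lower ABCG2 (-1.098, SE 0.071, adjusted p = 4.6e-12), and ABCB1 was at least 8.91-fold higher, since it had 0 counts in each CKI library. These 3 calls stand beside 25.7% of genes tested (16.6% higher and 9.06% lower), and the call of ABCG2 was lost with library size alone (-0.89). TOP2B had a log2 fold change of -0.91 (SE 0.069, adjusted p = 6.0e-11) and TOP2A of -0.62 (SE 0.060, adjusted p = 4.3e-09), both not called.

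**Figure D2:**
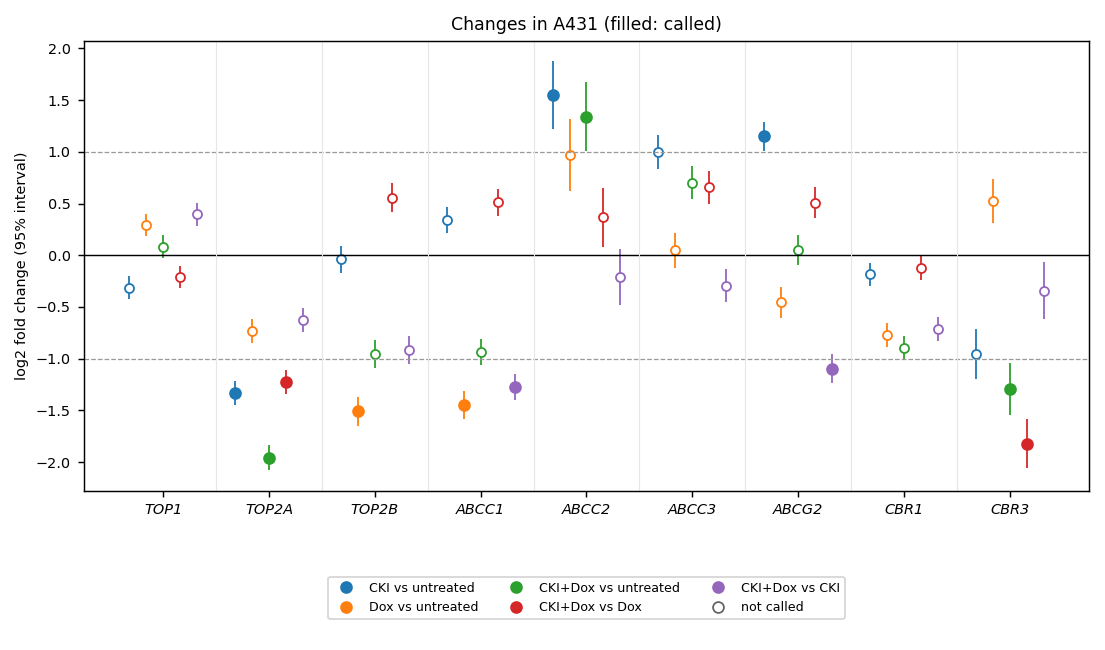
Log2 fold change with its 95% interval (vertical axis) of the 9 genes with counts in untreated cells (horizontal axis) in 5 comparisons of A431 groups (colours), with filled points for called changes and dashed lines at the fold threshold; comparisons that share a group are not independent. TOP2A lies below -1 in the comparisons of CKI with no CKI, at -1.33 and -1.23, and TOP2B and ABCC1 lie below -1 for doxorubicin against untreated cells, at -1.51 and -1.45.

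CKI alone, at 1.0 mg/ml, raised 2 pumps and lowered TOP2A in A431 cells. ABCG2 had 63.34, 62.05 and 62.99 CPM with CKI against 25.27, 27.86 and 26.49 CPM in untreated cells. The log2 fold change was 1.15 (SE 0.073, adjusted p = 2.0e-12), and offsets for GC content and length took it to 0.96, below the threshold. ABCC2 had 6.11, 4.53 and 5.85 CPM with CKI against 1.61 to 1.98 CPM (log2 fold change 1.55, SE 0.17, adjusted p = 2.1e-08). TOP2A had 194.0, 188.7 and 195.5 CPM against 444.9 to 463.5 CPM (log2 fold change -1.33, SE 0.060, adjusted p = 5.2e-15). All libraries of CKI lay on the same side of all untreated libraries for these genes. The same held for ABCC1, ABCC3, CBR3 and TOP1, which were not called. The share of all genes separated in this way was not computed. The 3 called genes stand beside 22.4% of genes tested (12% higher and 10.4% lower).

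ABCC3 had 199.4, 190.3 and 189.6 CPM with CKI against 103.3, 93.63 and 75.56 CPM in untreated cells. Its log2 fold change of 0.997 (SE 0.084, adjusted p = 3.0e-10) missed the fold threshold, and 12 of 17 alternatives called it. The 12 include the adjusted p alone, which has no fold threshold and so calls ABCC3 by rule. ABCC1 stood at 253.2 to 265.7 CPM with CKI (log2 fold change 0.34, SE 0.065, adjusted p = 7.1e-05) and CBR3 at 4.43 to 4.79 CPM (-0.95, SE 0.12, adjusted p = 3.9e-07), both not called. TOP2B overlapped its untreated libraries, with 94.98 to 103.5 CPM and a log2 fold change of -0.04 (95% interval -0.17 to 0.09), and ABCB1 had no count in any library of either group, which allows up to 0.160 CPM in untreated and 0.146 CPM in CKI libraries at 3 counts per library. These limits cover counting error only.

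The change with CKI was then compared between cells with and without doxorubicin, using the interaction term of the fit. ABCC2 was called among the 10 genes, where 19.5% of genes tested were called (8.56% positive and 10.9% negative). Its log2 fold change with CKI was 1.55 without doxorubicin and 0.37 with it, a difference of -1.18 (SE 0.22, adjusted p = 1.0e-04). TOP2A differed by 0.11 (95% interval -0.06 to 0.27), CBR1 by 0.06 (-0.10 to 0.22), TOP1 by 0.10 (-0.05 to 0.26) and ABCC1 by 0.17 (-0.01 to 0.35). Differences with an adjusted p under 0.05 but below the fold threshold were 0.60 for TOP2B, -0.64 for ABCG2, -0.34 for ABCC3 and -0.87 for CBR3. For ABCB1, without counts in either group that lacked doxorubicin, the difference cannot be estimated.

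**Figure D3:**
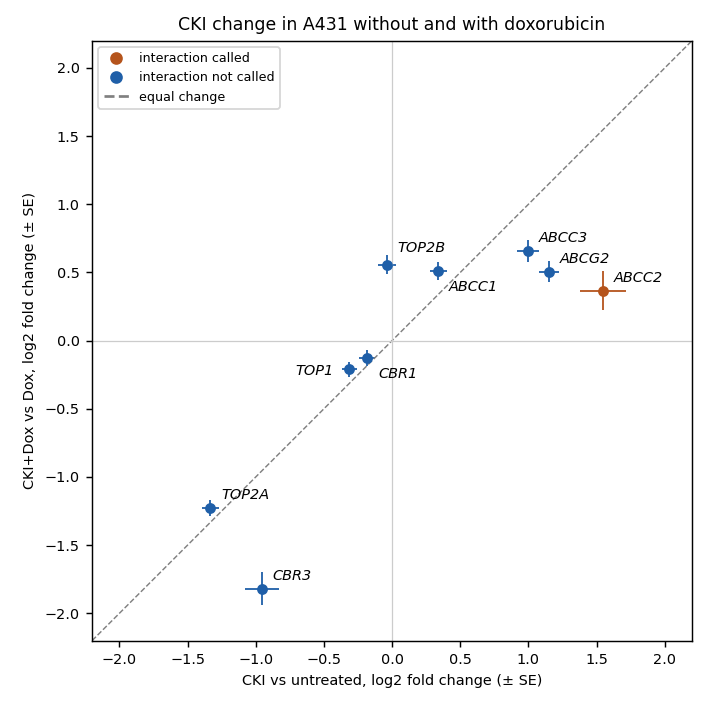
Log2 fold change with CKI in A431 cells without doxorubicin (horizontal axis, CKI against untreated) and with it (vertical axis, CKI with doxorubicin against doxorubicin) for 9 genes, with SE bars and a dashed line of equal change; the axes share no library. TOP2A lies near the line at -1.33 and -1.23, while ABCC2, the orange point at 1.55 and 0.37, has the called interaction.

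Genes of dividing cells were read beside TOP2A. The list of proliferation genes (AURKA, BIRC5, BUB1, CCNA2, CCNB1, CDK1, CENPF, MKI67, PCNA and PLK1) had 10 of 10 members called lower with CKI, 9 of 10 with CKI and doxorubicin against doxorubicin, and 0 of 10 with doxorubicin against untreated cells, where the median log2 fold change was -0.60. Of all genes tested, 10.4%, 8.03% and 14.3% were called lower in these comparisons, in the same order. The summed level of the list was 1925 to 2019 CPM in untreated, 536.6 to 548.6 in CKI, 1376 to 1412 in doxorubicin and 524.9 to 529.8 CPM in CKI with doxorubicin libraries of A431. The summed level was close between CKI with and without doxorubicin, but a sum does not show how single genes of the list moved. TOP2A stood at 116.1 to 119.7 CPM in CKI with doxorubicin and 188.7 to 195.5 CPM in CKI libraries. The part of this list in the change of TOP2A was not tested.

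**Figure D4:**
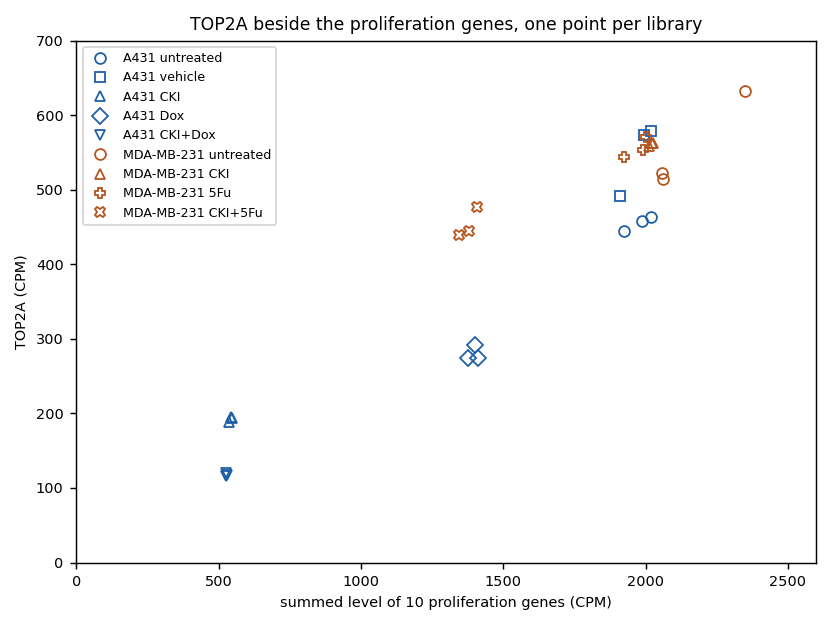
TOP2A (CPM, vertical axis) against the summed level of 10 proliferation genes (CPM, horizontal axis), with a point for each of 27 libraries. CKI and CKI with doxorubicin libraries of A431 lie near the same summed level, 524.9 to 548.6 CPM, with TOP2A at 188.7 to 195.5 and 116.1 to 119.7 CPM. The part of these genes in the level of TOP2A was not tested.

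The vehicle control was compared with untreated A431 cells to give the background of handling. None of the 10 genes was called by edgeR, beside 2.54% of genes tested (1.05% higher and 1.5% lower), and 4 of them had an adjusted p under 0.05 (TOP2B 0.31, TOP2A 0.28, ABCC3 -0.28 and CBR1 -0.20 on the log2 scale). DESeq2 called none either. At the adjusted p alone, 42.5% of genes tested passed for vehicle, 80.6% for doxorubicin against untreated cells, 63.6% for the combination against doxorubicin, 73.3% for it against CKI, 79.2% for it against untreated cells, 67% for CKI and 57.4% for the interaction. With offsets for GC content and length, the genes passing for vehicle went from 6747 to 3582, and the called genes from 166 higher and 238 lower to 150 higher and 97 lower. Across genes, the log2 fold change of vehicle against untreated cells had a Spearman correlation of -0.58 with GC content, given as a description, and with GC and length offsets TOP2A was at -0.05. TOP2A stood at 491.4 to 578.7 CPM in vehicle libraries, above the 444.9 to 463.5 CPM of untreated cells.

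In MDA-MB-231 cells ABCB1 did not pass the filter on low counts, so 9 of the 10 genes were tested. CKI raised ABCG2, which had 7.995, 9.78 and 9.33 CPM against 5.48, 2.58 and 2.71 CPM in untreated cells. The log2 fold change was 1.34 (SE 0.22, adjusted p = 6.3e-04), and 1.76 (adjusted p = 2.5e-10) without untreated replicate 1. No other gene of the 9 was called, where 5.96% of genes tested were (3.76% higher and 2.21% lower). TOP2A stood at 559.0 to 562.5 CPM with CKI and 514.6 to 633.2 CPM untreated, a log2 fold change of 0.00 (95% interval -0.15 to 0.15) and of 0.10 without untreated replicate 1. The proliferation genes summed to 2012 to 2027 CPM with CKI and 2059 to 2349 CPM untreated. CBR1 stood at 119.0 to 125.4 CPM with CKI against 70.71 to 96.59 CPM (log2 fold change 0.58, SE 0.10, adjusted p = 8.9e-04, not called, and 0.72 without untreated replicate 1).

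5Fu lowered ABCC3 and raised ABCG2 in MDA-MB-231 cells, 2 calls of 9 beside 13.3% of genes tested (6.01% higher and 7.31% lower). ABCC3 had 10.4, 9.58 and 8.25 CPM with 5Fu and 21.3, 23.5 and 26.2 CPM in untreated cells, a log2 fold change of -1.33 (SE 0.13, adjusted p = 3.3e-06), or -1.40 without untreated replicate 1. ABCG2 had 8.05 to 8.63 CPM with 5Fu, a log2 fold change of 1.24 (SE 0.22, adjusted p = 4.9e-04), or 1.67 without that replicate. TOP2B stood at 88.73 to 100.1 CPM with 5Fu against 144.0 to 153.9 CPM untreated (log2 fold change -0.65, SE 0.057, adjusted p = 1.5e-06, and -0.62 without that replicate) and ABCC2 at 1.84 to 2.14 against 0.885 to 1.20 CPM (0.90, SE 0.18, adjusted p = 9.3e-04, and 0.99 without it), both not called.

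Adding CKI to 5Fu raised ABCC3 to 32.8, 26.6 and 30.6 CPM, a log2 fold change of 1.67 against 5Fu alone (SE 0.13, adjusted p = 9.5e-07), beside 9.77% of genes tested that were called (5.26% higher and 4.51% lower). The change of ABCC3 with CKI was 0.57 without 5Fu and 1.67 with it, a difference of 1.098 (SE 0.17, adjusted p = 6.3e-04), beside 6.84% of genes tested with a called interaction (3.04% positive and 3.81% negative). Without untreated replicate 1 this difference was 1.16, and that of ABCG2 went from -0.91 to -1.34 and was then called. TOP2A stood at 439.5 to 477.2 CPM with both agents (log2 fold change -0.29, adjusted p = 0.0065) and CBR3 at 9.70 to 11.1 CPM (-0.79, adjusted p = 2.4e-04), both not called. ABCB1 had 7, 6 and 3 counts with CKI and 5Fu, 1 count in each 5Fu library and 0 counts in each untreated library. At the adjusted p alone, 36.2% of genes tested passed for CKI, 57.1% for 5Fu, 50.4% for CKI added to 5Fu and 31.4% for the interaction. Without untreated replicate 1, the number passing went from 4396 of 13999 to 6969 of 14193 genes for the interaction, from 5066 to 7362 for CKI and from 7992 to 9848 for 5Fu.

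**Figure D5:**
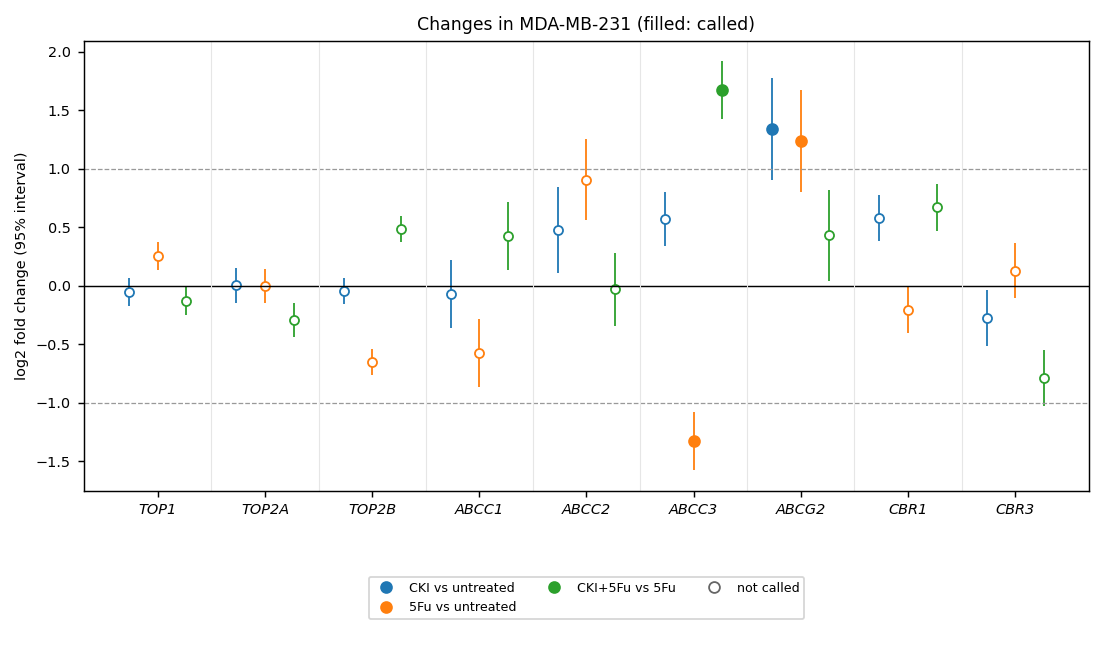
Log2 fold change with its 95% interval (vertical axis) of 9 genes (horizontal axis) in 3 comparisons of MDA-MB-231 groups (colours), with filled points for called changes and dashed lines at the fold threshold; both comparisons with untreated cells share those libraries. ABCC3 lies at -1.33 for 5Fu against untreated and at 1.67 for CKI with 5Fu against 5Fu, and ABCG2 at 1.34 and 1.24 for CKI and 5Fu against untreated cells.

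Between the untreated lines, 3 pumps were higher in A431 cells, beside 42.9% of the 14848 genes tested that differed (22.5% higher and 20.4% lower, with 78.6% at the adjusted p alone). ABCG2 was 7.71-fold higher (log2 fold change 2.95, SE 0.20, adjusted p = 1.5e-08), ABCC3 3.98-fold (1.99, SE 0.12, adjusted p = 3.3e-09) and ABCC1 2.55-fold (1.35, SE 0.14, adjusted p = 1.1e-06). Leaving out the first untreated MDA-MB-231 library gave 3.38, 1.93 and 1.14. CBR3 was lower in A431 cells (log2 fold change -0.90, SE 0.14, adjusted p = 4.7e-05, not called). Of 16 alternatives, 8 called CBR3, among them the offsets for GC content and length (-1.23) and the adjusted p alone, which has no fold threshold. The values ran from -1.32 to -0.72, the last without the first untreated MDA-MB-231 library. The change with CKI differed between the lines for TOP2A, by -1.33 (SE 0.12, adjusted p = 1.2e-06), and for ABCC2, by 1.08 (SE 0.29, adjusted p = 0.0071), beside 18.5% of genes tested (8.87% positive and 9.62% negative, with 47% at the adjusted p alone). With that library left out the difference was -1.44 for TOP2A and 0.98 for ABCC2, which then lost its call, as it did with the vehicle control (0.92) and with the offsets (0.84). ABCG2, called with CKI in both lines, differed by -0.18 (95% interval -0.71 to 0.35), and by -0.62 (adjusted p = 0.0012, not called) without the first untreated MDA-MB-231 library.

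Over all 9 groups, the lowest mean of TOP2A was 118 ± 1.81 CPM in CKI with doxorubicin, and its next neighbours upward, CKI (193 ± 3.59) and doxorubicin (280 ± 10.6), did not overlap with it or with each other. The means of TOP2A in untreated, CKI and 5Fu libraries of MDA-MB-231 and in vehicle libraries of A431 (548 to 561 CPM) overlapped between neighbours. The overlaps of untreated MDA-MB-231 cells with CKI and 5Fu rest on untreated replicate 1 (633.2 CPM), as the others had 514.6 and 523.0 CPM. ABCC1 ran from 258 ± 6.91 CPM (A431 with CKI) to 52.3 ± 1.83 CPM (MDA-MB-231 with 5Fu), and A431 cells with doxorubicin overlapped with 3 MDA-MB-231 groups, untreated, CKI and CKI with 5Fu. The overlap with untreated MDA-MB-231 cells rests on their replicate 1 (53.67 CPM), as the others had 89.35 and 90.43 CPM. TOP1 means ran from 254 ± 6.52 CPM in A431 with doxorubicin to 168 ± 7.59 CPM in MDA-MB-231 with CKI. CBR1 was highest in MDA-MB-231 cells with CKI (121 ± 3.69 CPM) and lowest in A431 cells with CKI and doxorubicin (46.4 ± 0.418 CPM). CBR3 was highest in MDA-MB-231 cells with 5Fu (17.9 ± 0.325 CPM), overlapping with untreated MDA-MB-231 cells, and lowest in A431 cells with CKI and doxorubicin (3.46 ± 0.417 CPM). That overlap of CBR3 again rests on untreated replicate 1 (20.2 CPM), as the others had 14.05 and 15.1 CPM.

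The genes whose log2 CPM followed each member most closely over the 15 A431 libraries are given as a description, since groups and library preparation are shared. TOP2A was followed by CBX5, HMGB3 and CENPF (Pearson r = 0.994, 0.992 and 0.991), and over the 12 MDA-MB-231 libraries these had r = 0.39, 0.78 and 0.84. ABCC1 was followed by CMIP, ZMIZ1 and AGAP1 (0.997, 0.996 and 0.995, with 0.88, 0.77 and 0.94 over MDA-MB-231 libraries). TOP2B was followed by PDE8A, CNOT2 and ATP1B1 (0.996, 0.995 and 0.995), of which CNOT2 had r = -0.72 in MDA-MB-231 libraries. ABCG2 was followed by MANBA, UBE2R2 and OSBPL9 (0.992, 0.991 and 0.989), ABCC2 by RNF103, MKRN1 and GABARAPL2 (0.979, 0.979 and 0.978) and ABCC3 by TNS1, RALGPS1 and MC1R (0.974, 0.966 and 0.964). Over MDA-MB-231 libraries r was 0.40, 0.18 and 0.16 for the ABCG2 genes and 0.34, -0.72 and 0.25 for the ABCC2 genes. RALGPS1 and MC1R each had 0.83 there. ABCB1 was followed by KLKB1, TNFSF8 and LIN28B (0.993, 0.993 and 0.992). Without doxorubicin ABCB1 had at most 1 count per A431 library, so these r mostly reflect its detection with doxorubicin. No r was computed over MDA-MB-231 libraries, where ABCB1 did not pass the filter. For TOP1 the genes were NOL8, WTAP and BCAS2 (0.977, 0.969 and 0.969), for CBR1 KDELR1, B4GAT1 and ABHD14B (0.985, 0.984 and 0.983) and for CBR3 APOL1 and MRPS6 (0.976 and 0.970). Over MDA-MB-231 libraries the TOP1 genes had 0.94, 0.95 and 0.95, and the CBR1 genes -0.26, 0.46 and 0.32. APOL1 and MRPS6 had 0.76 and -0.19 there.

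Other genes of the same pathways were read from lists. Among 10 other topoisomerases and adduct repair genes, doxorubicin called 3 lower and none higher against untreated A431 cells, with a median log2 fold change of -0.14 beside 0.017 over all genes, of which 37.3% were called (23% higher and 14.3% lower). They were TOP1MT, the mitochondrial topoisomerase I (14.3 ± 0.890 CPM against 69.7 ± 2.98, log2 fold change -2.31), NBN, a double-strand break sensor (-1.51), and TDP1, which removes stalled topoisomerase I (-1.16). None of the 10 was called when CKI was added to doxorubicin, where the median was -0.01. TDP1 missed the threshold with library size alone (-0.81) and with a filter of 10 counts in every library (-0.99).

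Among 11 other drug pumps, doxorubicin called 4 higher and 1 lower, beside the same 37.3% of all genes. ABCB5 (0.530 ± 0.278 CPM against 0.0199 ± 0.0345), ABCC11 (2.17 ± 0.126 against 0.241 ± 0.220) and ABCB4 (0.495 ± 0.221 against 0.115 ± 0.0996) are low transcripts, as ABCB1 is. ABCB5 and ABCB4 also passed the filter on low counts through the groups that received doxorubicin. The levels of ABCC11 in untreated cells and with CKI alone (0.142 ± 0.0791 CPM) were too low to pass that filter as well. ABCB4 lost its call without untreated replicate 3 or doxorubicin replicate 1. ABCA2 fell from 119 ± 15.2 to 25.2 ± 0.395 CPM (log2 fold change -2.26, adjusted p = 6.9e-14). None of the 11 was called when CKI was added to doxorubicin or given alone.

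Of 6 uptake carriers, 3 were called higher and 1 lower with doxorubicin, beside 37.3% of all genes. The call of SLCO1A2 (log2 fold change 1.05, adjusted p = 0.036) held in 10 of 16 alternatives, with values from 0.47 to 1.39. The 10 include the adjusted p alone, which keeps every call. SLC22A16, a carnitine transporter that also carries doxorubicin, had no count in untreated cells and 0.744 ± 0.0550 CPM with doxorubicin (14 to 16 counts), and like ABCB1 it passed the filter on low counts through the groups with doxorubicin. SLC28A3 went from 0.197 ± 0.0382 to 0.894 ± 0.224 CPM, and the nucleoside carrier SLC29A1 fell from 224 ± 4.83 to 92.2 ± 6.90 CPM (log2 fold change -1.31), a call lost with library size alone (-0.97). CKI with doxorubicin raised SLC28A3 to 2.72 ± 0.249 CPM over doxorubicin alone (log2 fold change 1.62, adjusted p = 9.6e-06). The levels of SLC28A3 in untreated cells and with CKI alone (0.366 ± 0.257 CPM) were too low to pass the filter on low counts. SLC29A1 was also called lower with CKI alone (-1.54).

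Among 12 other carbonyl and aldo-keto reductases, doxorubicin called 5 lower and 1 higher, with a median log2 fold change of -0.73, beside 37.3% of all genes called. AKR1C2 fell from 60.9 ± 1.42 to 14.4 ± 0.445 CPM and AKR1B10 rose from 1.39 ± 0.141 to 7.51 ± 0.901 CPM. CKI alone called 5 higher and 3 lower, beside 22.4% of all genes, among them AKR1C3, from 13.2 ± 0.367 to 153.5 ± 5.42 CPM (log2 fold change 3.45), and AKR1B10, to 26.9 ± 2.64 CPM (4.17). When CKI was added to doxorubicin, AKR1C3 rose from 5.82 ± 0.446 to 34.9 ± 2.76 CPM (2.60), with 5 of 12 called higher and 2 lower, beside 14.9% of all genes. AKR1C1 and AKR1C2 are near-identical copies, so the split of reads between them is uncertain. AKR1B10 and AKR1C1 also rose with CKI in MDA-MB-231 cells (4.13 and 2.88), where 5 of the 12 were called higher and 1 lower, beside 5.96% of all genes. Without untreated replicate 1 these values were 4.65 and 2.99.

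The list of 8 one-electron and quinone reductases holds enzymes that can reduce doxorubicin to its semiquinone, such as POR, and the quinone reductases NQO1 and NQO2. With doxorubicin 2 were called higher and 2 lower, beside 37.3% of all genes. The call of CYB5R3 (log2 fold change -1.003) held in 7 of 17 alternatives, with values from -1.07 to -0.66. The 7 include the adjusted p alone, which keeps every call. With CKI alone 4 were higher and none lower, beside 22.4% of all genes, among them NOS3 (1.77 ± 0.315 to 23.7 ± 1.55 CPM) and TXNRD1 (214 ± 17.5 to 871 ± 19.6 CPM), and 4 were higher and none lower when CKI was added to doxorubicin, beside 14.9% of all genes, among them CYB5R1, from 166 ± 4.21 to 401 ± 5.62 CPM (log2 fold change 1.29). Among 10 regulators of pumps and reductases, 2 were called higher and 2 lower with doxorubicin, beside 37.3% of all genes. NR1I2, the pregnane X receptor, had no count in untreated A431 cells and 0.809 ± 0.181 CPM with doxorubicin, where its counts of 12 to 19 let it pass the filter, and YBX1 fell from 3513 ± 153 to 1717 ± 36.6 CPM (log2 fold change -1.06), a call lost with library size alone (-0.72), DESeq2 (-0.97), RLE factors (-0.97), the vehicle control (-0.91), a filter of 10 counts in every library (-0.89) and the compared groups alone (-0.98). FOXO3 rose with CKI alone, from 105.5 ± 2.60 to 279 ± 4.81 CPM (1.31), a call lost with the vehicle control (0.82). None of the 10 regulators was called when CKI was added to doxorubicin.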

How the data were processed

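RNA-seq was made from 27 unstranded paired-end libraries (9 groups of 3). Per the labels and the study's methods, the authors trimmed reads with Trim Galore 0.3.7 and aligned them to hg19 with STAR 2.5.3a, and they deposited raw counts per gene as a table of 24566 rows. The counting tool and annotation are not given in the sources used here. All columns were matched to a sample. Depth was 17757206 to 22809339 counts per library, and 3 counts are 0.1315 to 0.1689 CPM.

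Counts were tested with edgeR 4.0.16 (R 4.3.3; TMM, filterByExpr, glmQLFit, glmQLFTest, two-sided), with all groups of a line in the fit (15881 genes in A431, 13999 in MDA-MB-231) and untreated and CKI libraries of both lines for line comparisons (14848). Adjusted p-values are Benjamini-Hochberg over all genes tested. Calls needed an adjusted p under 0.05 together with a change of more than 1 on the log2 scale. The p-values rest on the spread between the 3 replicates within groups, estimated jointly over all groups of a fit. The code was tested on simulated data. CPM used TMM factors over all 27 libraries, RPKM the canonical transcript length in GENCODE on GRCh37, and at-least folds 3 counts per library. Symbols came from a RefSeq table.

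All 10 genes are named. From other lists, the text names genes among the 3 largest called changes per direction whose libraries do not overlap, and the 3 genes most alike by Pearson r, of which 1 is not reported here. The genes and lists were chosen with earlier results of these data known. Alternatives were DESeq2 1.42.0, RLE factors, library size alone, no filter, at least 10 counts in every library, compared groups alone, adjusted p alone, a replicate block, GC and length offsets (lowess span 0.3), the vehicle as control, and leaving out each replicate. The offsets together with the block were added after the data were seen. No 2 replicates agreed within sampling noise.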

Additional observations from a re-analysis of the deposited data

Results flagged for a closer look

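In 4 cases the effect of a treatment on one of the genes differed between conditions by the interaction term of edgeR. For ABCC2 in A431 cells, the log2 fold change with CKI differed by -1.181 between cells with and without doxorubicin, with 27 to 36 counts in untreated, 86 to 120 in CKI, 70 to 73 in doxorubicin and 91 to 98 in CKI with doxorubicin libraries. For ABCC3 in MDA-MB-231 cells, it differed by 1.098 between cells with and without 5Fu, where ABCC3 stood at 9.42 ± 1.11 CPM with 5Fu and 30.0 ± 3.15 CPM with both agents. For ABCC2, the change with CKI differed by 1.079 between A431 and MDA-MB-231 cells, with 18 to 24 counts in untreated and 29 to 32 in CKI libraries of MDA-MB-231. For TOP2A, the change with CKI differed by -1.325 between the lines, and the proliferation genes differed in the same direction, 10 of 10 being called. Of all genes tested, 18.5% were called in that comparison, 9.62% in this direction. The part of the proliferation genes in the difference of TOP2A was not tested.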

How the results depend on the processing

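With the adjusted p alone, without a fold threshold, the genes called of 10 were 9 for doxorubicin against untreated, 9 for CKI with doxorubicin against doxorubicin, 9 against CKI and 8 against untreated, 8 for CKI, 4 for vehicle and 5 for the interaction in A431 cells. In the same order, 80.6%, 63.6%, 73.3%, 79.2%, 67%, 42.5% and 57.4% of all genes tested passed. Of the 9 genes tested elsewhere, 3 were called for CKI, 6 for 5Fu, 6 for CKI with 5Fu against 5Fu and 4 for the interaction in MDA-MB-231 cells, 8 between the untreated lines and 5 for line by CKI. All genes tested passed at 36.2%, 57.1%, 50.4%, 31.4%, 78.6% and 47% there. The CKI by doxorubicin interaction called 2 in place of 1 with library size alone, the GC and length offsets (with or without the replicate block) or the vehicle control. CKI with 5Fu called 2 with no filter, the CKI by 5Fu interaction 2 with the offsets, the untreated lines 5 with the offsets and block, and line by CKI 1 with the offsets or the vehicle.

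Leaving out each replicate gave 3 to 4 calls for doxorubicin, 2 to 3 for the combination against doxorubicin, 3 against CKI, 4 to 5 against untreated, 3 to 5 for CKI (5 without untreated A431 replicate 1, which adds ABCC3 and CBR3), 0 for vehicle, 1 for CKI by doxorubicin, 1, 2, 1 and 1 to 2 for the MDA-MB-231 comparisons in the order above, 3 to 4 between lines and 1 to 2 for line by CKI. Of these, 2 for CKI by 5Fu and 1 for line by CKI came without untreated MDA-MB-231 replicate 1.

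Signs turned in log2 fold changes near 0. CBR1 with CKI in A431 was 0.20 with the offsets, with or without the block, and 0.0163 with the vehicle control. TOP2A with vehicle was -0.0526 with the offsets and -0.0525 with offsets and block, and its CKI by doxorubicin interaction was -0.0331 with library size alone. TOP2A with CKI in MDA-MB-231 was -0.00475 with DESeq2, -0.00481 with RLE factors, -0.0073 with no filter and -0.0538 to 0.104 without single replicates. TOP2B with CKI in A431 was 0.0697 with library size alone and -0.0679 to 0.00371 without single replicates, and ABCC3 with doxorubicin was -0.00934 with no filter and -0.0731 to 0.1305 without single replicates. The cause was not tested.

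Same-numbered libraries did not deviate together (r from -0.29 to 0.14 across comparisons), so the numbers were not taken as pairs. With the replicate block alone, the count of called genes for CKI in A431 was 4 in place of 3. A filter of 10 counts in every library left no value for ABCB1. At this depth a gene under 3 counts per library is not told from 0.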
